A study of Mus musculus with 4 samples.

Results

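The collagen genes were taken as every row of the gene tables whose name has the form Col, a type number, a and a chain number. This gave 44 of the 38924 rows, and by gene ID all 44 lay at the place and strand of the same gene in GENCODE M21. The 4 libraries were made from kidney of female CB-17 SCID animals, which have a Balb/c background and lack functional T and B cells. Their ages are not stated. The 2 control samples come from mice that received saline through the tail vein, and the 2 treated samples from mice that received IgG-Gd-IgA1 immune complexes by the same route. Gd-IgA1 is IgA1 lacking galactose on its hinge sugars, which autoantibodies bind in IgA nephropathy. Injections were given 3 times within 7 days, and kidneys were taken on the day after the last. The model is a passive one by its title, and the labels do not say that each library came from its own animal. P-values therefore measure the spread between these samples, which may be technical.

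Collagens are built from chains that wind around each other into a triple helix. The fibril-forming types make the cables of the interstitium, whereas type IV makes the sheet-like network of basement membranes, and other types decorate fibrils, link cells to matrix or span the cell membrane. In the kidney, the type IV chains encoded by Col4a3, Col4a4 and Col4a5 form the network of the mature glomerular basement membrane, and their loss causes Alport disease, while Col4a1 and Col4a2 encode the chains found in nearly all basement membranes. The interstitial types I and III are the classic components of renal scar tissue. The study's title asks about IgG autoantibodies in IgA nephropathy, and the design compares kidneys after immune complexes with kidneys after saline.

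Depth was 19675879 to 22791960 reads assigned to genes per library, and collagen rows took 23792 to 27570 of these. Markers of kidney tubules were abundant in every library, with 10 proximal tubule genes summing to between 14158 and 18100 CPM (reads scaled to library size with TMM, a method that trims extreme genes). Several marker lists differed between the groups. For scale, 51.9% of all genes tested were higher in mean with complexes. Without overlap between groups, 15.4% of all genes tested were higher and 14.6% lower. The 10 adipocyte markers summed to 555.5 and 1175 CPM with saline and to 2155 and 2215 CPM with complexes, with 10 of 10 higher in mean and 9 not overlapping between groups. The 6 mesothelial markers summed to 28.2 and 27.0 CPM against 7.35 and 13.6 CPM, with 1 of 3 tested higher and 1, Upk3b, not overlapping. Without Upk3b the sum of the other 5 was 4.43 and 13.3 against 5.92 and 10.1 CPM, which overlapped. All 10 macrophage markers had higher means, 7 without overlap, and summed to 193.0 and 209.3 against 242.8 and 282.8 CPM. Pericyte and smooth muscle markers were 7 of 10 higher (199.4 and 265.7 against 325.7 and 246.4 CPM), with overlapping sums. Of these 10, 5 were higher and 0 lower without overlap. Urothelial markers were 0 of 7 higher (184.1 and 201.1 against 167.1 and 128.5 CPM), but each of the 7 overlapped between groups. No listed marker was at 0 in all libraries. The adipocyte and macrophage lists moved with the groups both in sum and in most markers. The part of any of these lists in the collagen values below was not tested. In pieces of whole tissue, fewer cells of a type and less RNA per cell cannot be told apart.

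Levels of different genes were compared as RPKM, the reads in exons scaled to exon length and to the library total. The basement membrane genes and Col18a1 headed the collagen genes in kidney. Col4a1 had the highest mean at 28.3 RPKM, followed by Col18a1 at 22.9, Col4a4 at 20.3, Col4a3 at 19.1 and Col4a2 at 17.9 RPKM. The next gene was Col27a1 at 7.56 RPKM. Neighbours among the top 5 did not differ beyond the spread over libraries, since Col18a1 alone ranged from 14.8 to 32.9 RPKM and Col4a4 from 14.7 to 27.0 RPKM. The 6 type IV genes held 56.4% of all collagen reads, the 11 fibril-forming genes 19.1%, the pair of multiplexins 14.4%, the 9 fibril-associated genes 4.03% and the 6 type VI genes, which build beaded filaments, 3.69%. Only 19 of the 44 genes reached a mean of 1 RPKM. The order depends on which reads are counted. With unique exon reads alone, an alternative chosen after seeing the data, the means were 20.4 RPKM for Col4a1, 20.3 for Col4a4, 17.3 for Col18a1, 17.1 for Col4a2, 7.56 for Col27a1 and 7.51 for Col4a3. Col4a3 was then level with Col27a1, and 4 genes stood above the rest.

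**Figure D1:**
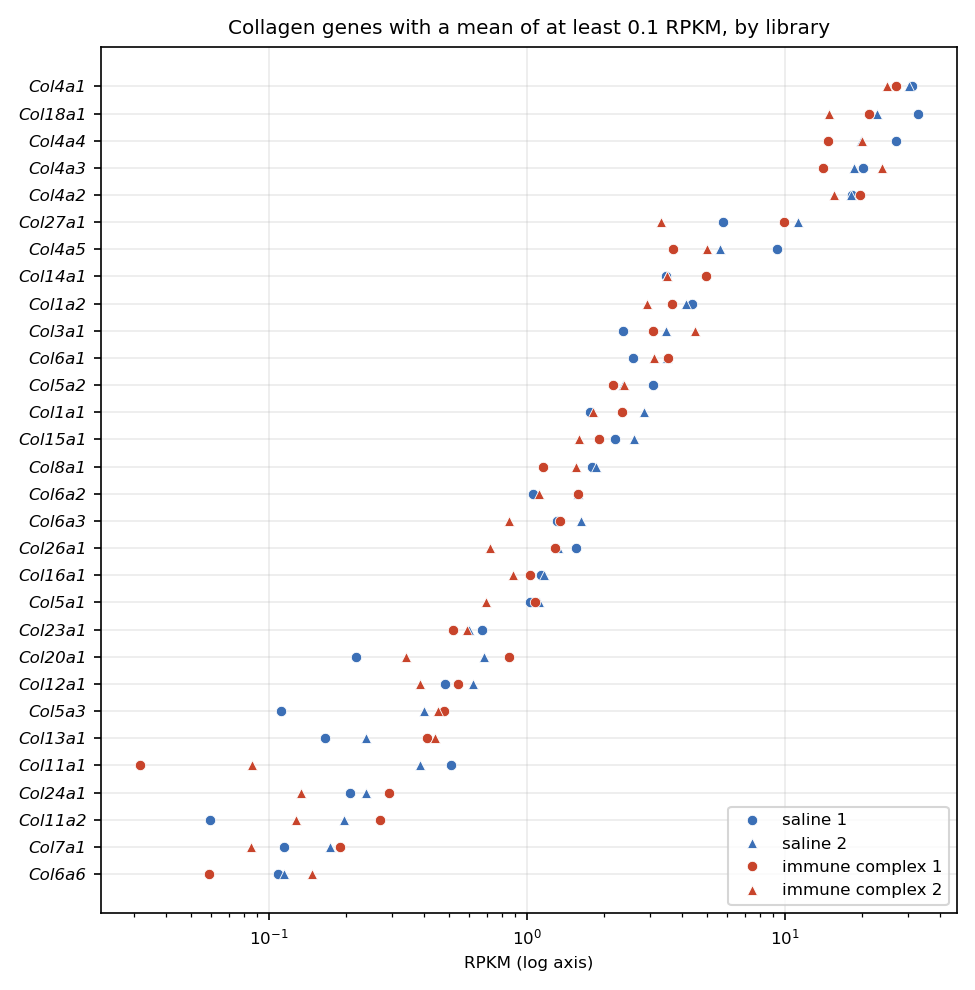
RPKM in each of the 4 libraries for the collagen genes with a mean of at least 0.1 RPKM, on a log axis. Circles are replicate 1 and triangles replicate 2, blue is saline and red is immune complex. The values count all exon reads, under which the 5 genes at the top, Col4a1 to Col4a2 by mean, stand apart from the rest, while on unique reads Col4a3 falls to 7.51 RPKM. The widest gap between blue and red is that of Col11a1.

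The share of reads in collagen rows was 0.137% and 0.132% with saline and 0.117% and 0.110% with complexes. Their 95% Wilson intervals, which cover counting error only, were 0.136 to 0.139%, 0.130 to 0.133%, 0.116 to 0.118% and 0.108 to 0.111% in the same order. Both treated libraries were below both controls, and the mean was 15.7% lower. An exact two-sided permutation test gave p = 0.333, the smallest value that 2 against 2 allows, so this design cannot place the difference past a threshold. On the CPM scale the collagen sum was 1330 and 1304 against 1194 and 1124. Without Col18a1 it was 1103 and 1142 against 1037 and 1013, and the groups still did not overlap. Without Col18a1 and the 6 type IV genes it was 334.4 and 445.9 against 421.2 and 294.5 CPM, and the groups overlapped. The 6 type IV genes by themselves summed to 768.6 and 696.2 against 615.8 and 718.6 CPM, which overlapped as well.

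No collagen gene passed Benjamini-Hochberg adjustment over all genes in edgeR's quasi-likelihood test. Of the 44 genes, 38 had enough reads to be tested, and 0 of 38 were called where 0% of all 16334 tested genes were. Unadjusted p was under 0.05 for 2 of the 38 (Col11a1 and Col4a5, both lower), against 4.59% of all genes. All genes held 2.6% lower and 1.98% higher at that p, and 0 collagen genes were higher. DESeq2 called 1 collagen gene, Col11a1, among the 0.664% of genes it called, and limma-voom called 0% of all genes. Means were lower with complexes for 24 of 38 (63.2%), against 48.1% of all genes tested, and higher for 14, against 51.9%. The groups did not overlap for 11 lower genes (28.9%) and 5 higher genes (13.2%), against 14.6% and 15.4% of all genes. The median log2 fold change was -0.16, against 0.010 over all genes, and it was 0.0056 without saline replicate 2.

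The spread within groups was wide for these genes. For 22 of the 38 the higher library of at least 1 group exceeded the lower by more than 1.5 times, which held for 34.2% of all genes tested. Some of these rest on few reads, such as Col17a1, which encodes a collagen of epithelial anchoring complexes and had 3 and 21 reads with saline and 5 and 17 reads with complexes. Others do not, and Col27a1 is described below.

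**Figure D2:**
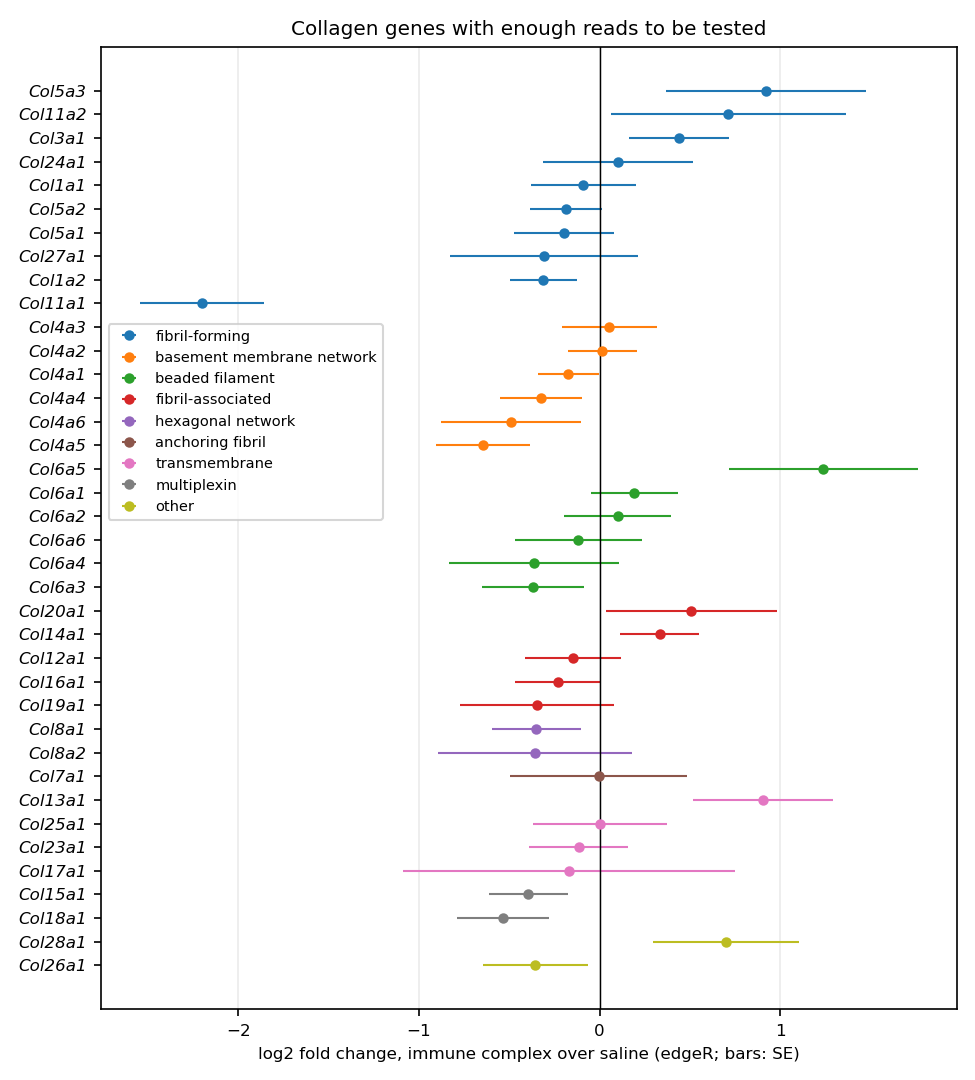
Log2 fold change of immune complex over saline kidneys for the 38 tested collagen genes, from edgeR, with bars of 1 standard error and colours for the role of the chain. Col11a1 stands at -2.20 and all others but Col6a5, at 1.24, lie within 1 log2 unit of 0.

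Among the fibril-forming genes, Col11a1 had the largest difference. It encodes a chain of type XI collagen, a minor component that helps to start fibrils and is best known from cartilage, and it lies on the plus strand at chr3:114030540-114220718 (GRCm38). It had 103 and 91 reads in the saline libraries and 20 and 24 reads in the immune complex libraries. Both treated libraries were far below both controls, and in these total reads the replicates of each group lay close together. In exon reads, given below, the treated libraries lay further apart. The mean was 4.69 ± 0.539 CPM with saline and 1.02 ± 0.168 CPM with complexes (SD, n = 2 each), 4.6-fold lower. The log2 difference was -2.20 ± 0.34 (SE) with an adjusted p of 0.457 in edgeR's quasi-likelihood test, so it was not called there. In DESeq2 it was -2.21 ± 0.51 with an adjusted p of 0.0046. The authors' deposited table, coded saline over immune complex, gives 0.89 with an adjusted p of 0.0075. Its values are smaller in size than those of edgeR for other genes too, by an amount that varies. Col6a5 stands at -0.18 there against 1.24 in edgeR, and Col4a1 at 0.14 against -0.17. The sizes are therefore not compared. Col11a1 is the 1 collagen gene called in that table, which lists 37 collagen genes and calls 0.496% of all its genes.

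The difference in Col11a1 was also seen in exon reads alone. Exon reads were 97 and 78 with saline against 7 and 18 with complexes, a log2 difference of -2.83 ± 0.49 (edgeR adjusted p = 0.435). Across all alternatives tried for it, the log2 difference in Col11a1 stayed between -2.83 and -2.04. Over the fits that keep all 4 libraries, its adjusted p ranged from 0.0046 in DESeq2 to 0.512 in edgeR with genes of at least 1 CPM. Fits without 1 library leave 1 sample in a group, which is assumed to vary like the pair of the other group, and their p-values are not given as support. The absolute level was low throughout, with 0.510 and 0.386 RPKM with saline against 0.0318 and 0.0860 RPKM. Of the marker lists above, the mesothelial and urothelial sums were also lower in both treated libraries. The urothelial sum lay mostly in Krt7 (178.4 and 148.1 against 155.3 and 117.5 CPM), which overlapped between groups. Each other urothelial marker was lowest in saline 1, such as Upk1b (1.28 and 14.7 against 2.37 and 3.07 CPM). The mesothelial difference lay in Upk3b (23.8 and 13.6 against 1.43 and 3.54 CPM). Msln (0.935 and 0.993 against 0.493 and 2.32 CPM) had a higher mean (log2 difference 0.53), which rests on immune complex 2. Krt19 had a lower mean (log2 difference -0.37), and both overlapped between groups. The part of either list in the values of Col11a1 was not tested. The partner gene Col11a2 did not share the pattern, with 8 and 28 reads with saline and 43 and 19 reads with complexes. Col2a1, the cartilage collagen that travels with type XI, had 1 or 2 reads in each library.

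The main interstitial collagens showed no common direction. Of 11 fibril-forming genes 10 were tested, 4 with a higher and 6 with a lower mean, and their median log2 difference was -0.14. Col1a1, which encodes a chain of the most abundant fibril type, stood at 1.77 and 2.85 RPKM with saline and 2.35 and 1.81 RPKM with complexes, so the groups overlapped fully (log2 difference -0.090 ± 0.29). Its partner chain gene Col1a2 stood at 4.39 and 4.13 against 3.66 and 2.91 RPKM, lower in both treated libraries by a small margin (log2 difference -0.31 ± 0.18). Col3a1, which encodes the only chain of type III, stood at 2.37 and 3.46 against 3.08 and 4.49 RPKM, with overlapping groups (log2 difference 0.44 ± 0.28). None of these 3 genes was called. Since type I fibrils are built from both Col1a1 and Col1a2 chains, their ratio within a library was also read. It was 0.402 in saline 1 and 0.622 to 0.690 in the other libraries, so saline 1 stood apart there. The ratio of Col3a1 to Col1a1 was 2.47 in immune complex 2 and 1.21 to 1.34 in the others.

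Type V genes regulate fibril diameter. Col5a2 stood at 3.08 and 2.37 RPKM with saline and 2.16 and 2.39 RPKM with complexes, and Col5a1 ranged from 0.695 to 1.11 RPKM over the 4 libraries. Col5a3 had 16 reads in saline 1 and 58, 75 and 71 reads in the other 3 libraries. Its log2 difference of 0.92 ± 0.55 thus rests on saline 1, and it was 0.29 without that library and 2.07 without saline replicate 2. Col24a1 had 35 to 70 reads per library and a log2 difference of 0.10 ± 0.42.

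Col27a1, a fibril-forming gene expressed in cartilage and other tissues, had the widest spread of the abundant collagen genes. It stood at 77.9 and 152.7 CPM with saline and at 139.2 and 47.1 CPM with complexes. The high and low libraries were thus split across the groups, with a 1.96-fold gap between the saline libraries and a 2.96-fold gap between the immune complex libraries. The log2 difference of -0.31 ± 0.52 turned from -1.29 with immune complex replicate 1 left out to 0.27 when replicate 2 of that group was left out. With 996 to 3229 reads per library, counting error is a small part of this spread.

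**Figure D3:**
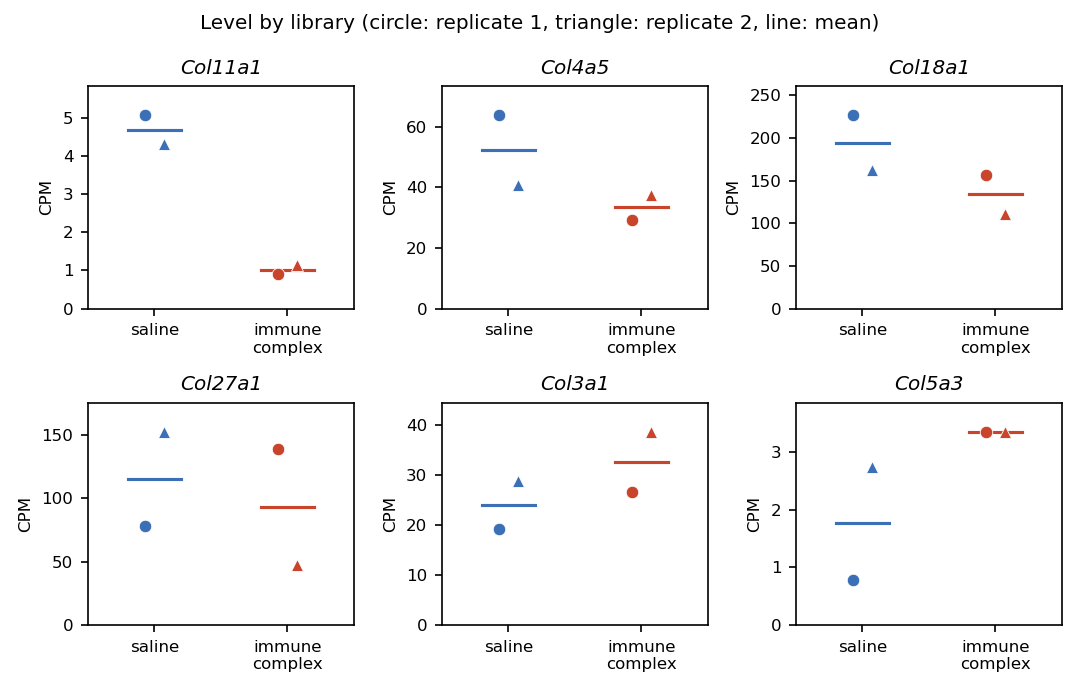
CPM by library for Col11a1, Col4a5, Col18a1, Col27a1, Col3a1 and Col5a3, each axis starting at 0, with lines at the group means. The groups are separate for Col11a1, Col4a5, Col18a1 and Col5a3, while for Col27a1 both groups hold 1 high and 1 low library.

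The type IV genes lie in head-to-head pairs, each pair read in opposite directions from neighbouring starts. In the deposited gene spans Col4a1 and Col4a2 overlap by 22 bases with starts 21 bases apart, the starts of Col4a4 and Col4a3 are 72 bases apart and those of Col4a6 and Col4a5 are 1309 bases apart. Windows of 250 bases before to 50 bases after each start were read from RefSeq (GRCm38.p6), and 35 of the 44 genes were matched to a window in the table used. The windows of Col4a1 (chr8:11312777-11313076, minus strand), Col4a2 (chr8:11312555-11312854, plus strand) and Col4a4 (chr1:82586800-82587099, minus strand) are shown because each pair shares its start region. Capitals mark matches on either strand to 3 promoter motifs, and matches can share letters. The GC box was searched as GGGCGG. The CCAAT box was searched as the letters of its name, and the TATA box as TATAAA.
Col4a1: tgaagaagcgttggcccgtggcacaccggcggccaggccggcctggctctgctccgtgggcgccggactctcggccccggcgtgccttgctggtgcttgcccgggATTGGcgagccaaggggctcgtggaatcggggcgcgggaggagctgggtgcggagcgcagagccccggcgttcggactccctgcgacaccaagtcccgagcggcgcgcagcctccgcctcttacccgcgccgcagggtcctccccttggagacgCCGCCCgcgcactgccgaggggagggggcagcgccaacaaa
Col4a2: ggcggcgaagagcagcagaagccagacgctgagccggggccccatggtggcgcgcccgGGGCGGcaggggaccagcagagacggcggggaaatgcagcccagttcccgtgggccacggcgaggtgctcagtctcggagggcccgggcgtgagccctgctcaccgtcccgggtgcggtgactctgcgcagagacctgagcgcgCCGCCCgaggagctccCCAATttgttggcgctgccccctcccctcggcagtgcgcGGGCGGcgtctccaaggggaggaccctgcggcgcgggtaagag
Col4a4: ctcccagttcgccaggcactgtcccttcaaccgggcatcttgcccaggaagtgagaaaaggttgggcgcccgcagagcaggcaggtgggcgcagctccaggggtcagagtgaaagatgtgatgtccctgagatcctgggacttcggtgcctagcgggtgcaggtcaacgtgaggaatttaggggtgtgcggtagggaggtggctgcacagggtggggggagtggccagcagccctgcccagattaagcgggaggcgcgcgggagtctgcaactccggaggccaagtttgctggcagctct
The Col4a1 and Col4a2 windows share 78 bases, read from opposite strands. The GC box is found 1 time in the Col4a1 window and 3 times in that of Col4a2, the CCAAT box 1 time in each, and the TATA box in neither. The GC box of the Col4a1 window and the last of the Col4a2 window are the same site, within the shared bases. The Col4a4 window, which also contains the start of Col4a3, holds none of the 3 motifs. Of 32851 windows of this length in the genome, 35.7% hold the GC box, 37.4% the CCAAT box and 13.6% the TATA box, against 23, 13 and 5 of the 38 collagen windows. A match is a description of letters only, and says nothing of binding.

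Of the 6 type IV genes, 2 had a higher and 4 a lower mean, with a median log2 difference of -0.25. Col4a1 and Col4a2, the most widespread chains, differed little between the groups. Col4a1 (chr8:11198423-11312826, minus strand) stood at 31.1 and 30.2 RPKM with saline and at 27.1 and 24.9 RPKM with complexes, lower in both treated libraries (log2 difference -0.17 ± 0.17, edgeR adjusted p = 1.0). Col4a2 (chr8:11312805-11449287, plus strand) stood at 18.3 and 18.1 against 19.6 and 15.5 RPKM, so immune complex 1 and 2 lay on either side of the controls (log2 difference 0.016 ± 0.19). The ratio of Col4a1 to Col4a2 in RPKM was 1.70 and 1.67 with saline and 1.38 and 1.61 with complexes. In unique reads, those placed at 1 location, the read ratio was 1.36 and 1.27 against 1.01 and 1.24.

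The glomerular pair Col4a3 and Col4a4 gave different answers depending on which reads were counted. Col4a4 (chr1:82452558-82586849, minus strand) stood at 177.2 and 136.6 CPM with saline and 107.5 and 143.3 CPM with complexes, with overlapping groups (log2 difference -0.32 ± 0.23). Col4a3 (chr1:82586921-82722059, plus strand) stood at 200.8 and 190.5 against 152.0 and 254.2 CPM, with the highest and the lowest library both in the immune complex group (log2 difference 0.054 ± 0.26). However, only 38.7% of Col4a3 reads were placed at 1 location, against 99.8% for Col4a4. Unique Col4a3 reads were 1879 and 1651 with saline and 1181 and 1828 with complexes, and the remaining reads were 2203, 2377, 2212 and 3552 in the same order. The high total of immune complex 2 thus lay in the reads not counted as unique. On unique reads the log2 difference of Col4a3 was -0.29 ± 0.26, the opposite sign and near that of Col4a4, and neither value was called.

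The ratio of Col4a4 to Col4a3 reads spanned 1.57-fold over the 4 libraries in total reads, from 0.564 to 0.882. In unique reads it spanned 1.22-fold, from 1.65 to 2.03. The place of the other copies of these reads is not given in the files. Col4a1 and Col18a1, with 71.8% and 75.2% unique reads, and the weakly expressed type VI gene Col6a6, with 53.8%, were the other members under 80%.

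**Figure D4:**
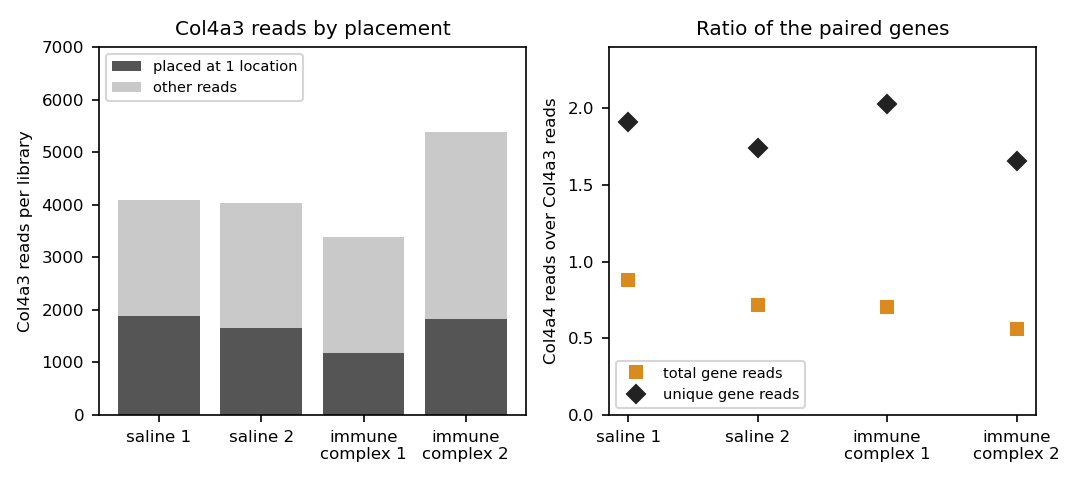
Left, Col4a3 reads per library, split into reads placed at 1 location and other reads. Right, the ratio of Col4a4 to Col4a3 reads in each library, from total and from unique gene reads. The unique part of Col4a3 was 1828 reads in immune complex 2, between the 1651 and 1879 of the saline libraries, whereas the other reads reached 3552.

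Col4a5 was the type IV gene with the lowest p. It encodes the chain that joins the Col4a3 and Col4a4 chains, mutated in X-linked Alport disease, and lies at chrX:141475385-141689234 on the plus strand. It stood at 63.9 and 40.6 CPM with saline and at 29.4 and 37.4 CPM with complexes. The groups did not overlap, but saline 2 and immune complex 2 differed little. The log2 difference was -0.65 ± 0.26, with an unadjusted p of 0.044 and an adjusted p of 1.0 in edgeR's quasi-likelihood test. Leaving out saline replicate 1 gave -0.29, and leaving out saline replicate 2 gave -0.95. Markers of podocytes, the glomerular cells that make this network, were 10 of 10 higher in mean (594.8 and 563.1 CPM summed with saline against 725.7 and 593.8 CPM with complexes). These sums overlapped, and 4 of the 10 were higher without overlap, against 15.4% of all genes tested. Markers of the loop of Henle and collecting duct were 2 of 10 higher and summed to 10526 and 8807 CPM against 6851 and 8928 CPM. These sums overlapped too. Without overlap, 4 of the 10 were lower and 1 higher, against 14.6% and 15.4% of all genes tested. The part of either list in the Col4a5 values was not tested. Col4a6, the head-to-head partner, was nearly silent at 0.0165 to 0.0446 RPKM, and 77.5% of its 89 reads lay in introns.

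Both multiplexins, basement membrane collagens whose ends can be released as anti-angiogenic fragments, were lower in both treated libraries. Col18a1, the source of endostatin, stood at 226.7 and 162.0 CPM with saline and at 157.0 and 111.2 CPM with complexes (chr10:77052178-77166548, minus strand). The groups barely missed each other, since saline 2 and immune complex 1 were nearly equal (log2 difference -0.54 ± 0.25, edgeR adjusted p = 1.0). It ranged from -0.80 to -0.27 with single libraries left out. Col18a1 shares 8825 bases with Slc19a1, a folate carrier gene on the other strand. The sources do not state whether counting used strand, so reads of these genes cannot be told apart within that stretch. Col15a1 stood at 14.3 and 17.5 against 13.1 and 11.1 CPM (log2 difference -0.40 ± 0.22). Endothelial markers were 4 of 10 higher and summed to 702.3 and 572.7 CPM with saline and 593.8 and 527.4 CPM with complexes. These sums overlapped. Without overlap, 3 of the 10 were lower and 1 higher, against 14.6% and 15.4% of all genes tested. The part of these markers in the multiplexin values was not tested.

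Type VI genes encode the chains of microfibrils around cells, and 3 of the 6 had a higher and 3 a lower mean. Col6a1 stood at 2.58 and 3.50 RPKM with saline and 3.54 and 3.12 RPKM with complexes, Col6a2 at 1.06 and 1.58 against 1.58 and 1.12 RPKM and Col6a3 at 1.31 and 1.63 against 1.35 and 0.856 RPKM. All 3 overlapped between groups. Col6a1 and Col6a2 lie side by side on chromosome 10, and their RPKM ratio stayed within 2.22 to 2.79. The cluster of Col6a4, Col6a5 and Col6a6 on chromosome 9 was weakly expressed, at 5 to 73 reads per gene and library. Col6a5 had 9 and 5 reads with saline and 16 and 19 with complexes. Its log2 difference of 1.24 ± 0.52 (edgeR unadjusted p = 0.052) was the highest of the collagen genes tested. Only the treated libraries gave it enough reads to be tested, so its high value is no support for a difference. In RPKM, which counts exon reads, it stood at 0.0379 and 0.0237 against 0.0327 and 0.0860, and the groups overlapped.

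The fibril-associated genes, whose products sit on the surface of fibrils, were led by Col14a1. It stood at 3.46 and 3.48 RPKM with saline and 4.97 and 3.51 RPKM with complexes. The separation rests on immune complex 1, without which the log2 difference of 0.33 ± 0.22 was 0.063. Col16a1 stood at 1.14 and 1.17 against 1.03 and 0.888 RPKM (log2 difference -0.23 ± 0.24). Of the others in this group, Col12a1, Col19a1 and Col20a1 were tested and not called, with log2 differences of -0.15, -0.35 and 0.51. Col9a1, Col9a2, Col9a3 and Col22a1 had 0 to 11 reads per library and were not tested.

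Among network, anchoring and membrane collagens, Col8a1, a gene of vessel wall matrix, stood at 1.79 and 1.86 RPKM with saline and 1.16 and 1.55 RPKM with complexes, lower in both treated libraries (log2 difference -0.35 ± 0.25). Its partner Col8a2 had 6 to 12 reads per library. Col10a1, the hypertrophic cartilage collagen, had 0 reads in every library, and with Col2a1 it completes the 6 genes without a test. Col7a1, of anchoring fibrils, had 20 to 45 reads per library and a log2 difference of -0.0061 ± 0.49. The transmembrane gene Col13a1 stood at 0.984 and 1.61 CPM with saline and 2.51 and 2.36 CPM with complexes, higher in both treated libraries (log2 difference 0.91 ± 0.39, unadjusted p = 0.054, edgeR adjusted p = 1.0). Col23a1, also transmembrane, ranged only from 3.94 to 4.48 CPM over the 4 libraries. Col26a1 stood at 1.56 and 1.32 against 1.29 and 0.718 RPKM.

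**Figure D5:**
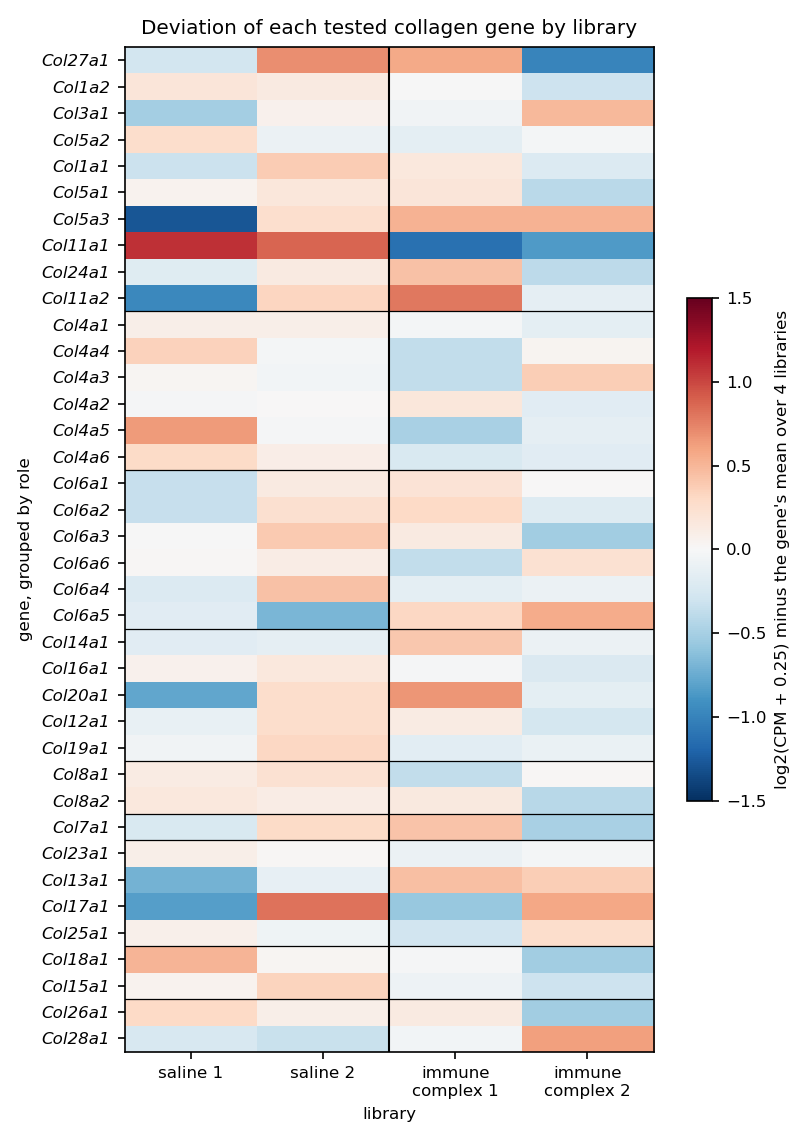
Deviation of each tested collagen gene from its own mean over the 4 libraries, as log2(CPM + 0.25), by library and grouped by the role of the chain. Red is above and blue below the mean. Col11a1 is red in both saline and blue in both immune complex libraries, whereas Col27a1 is red in saline 2 and immune complex 1 and blue in the other libraries.

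Collagen genes are split into many exons, with a median of 53.5 exons per gene against 7 over the 28116 genes with an annotated transcript, and a median summed exon length of 6825 bases against 2268. For 7 of the 44 genes more than 50% of the reads lay in introns (Col4a6, Col6a6, Col9a1, Col19a1, Col22a1, Col25a1 and Col28a1), each with a mean of at most 0.108 RPKM. Col28a1, a gene of peripheral nerve matrix, is among the 10 genes with the lowest p. Its total reads were 27 and 26 with saline and 35 and 55 with complexes (log2 difference 0.70 ± 0.40). Its exon reads were 1 and 3 against 17 and 14, a log2 difference of 2.84 ± 0.68 with an adjusted p of 0.722 in edgeR's quasi-likelihood test. Both treated libraries were above both controls on either measure, but exon reads are part of the total reads. In exon reads only the treated libraries had enough reads for the test. The size of that difference is therefore no support.

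Genes that make, process and bind collagen were read from the same fit, from 50 genes in 5 lists. Of these, 48 were tested, 21 were higher and 27 lower in mean, and 0 were called by edgeR or DESeq2. Groups did not overlap for 13 of 48 (27.1%), against 30% of all genes, and the median log2 difference was -0.051. Among chaperones and trafficking genes, P3h4 (listed under its older symbol Leprel4), a partner of lysyl hydroxylase in the endoplasmic reticulum, stood at 16.7 and 12.4 CPM with saline and 9.77 and 9.31 CPM with complexes. It was lower in both treated libraries (log2 difference -0.61 ± 0.23, unadjusted p = 0.037) and is the 1 gene of the 48 with an unadjusted p under 0.05. Fkbp10, a prolyl isomerase of procollagen, differed by -0.40 ± 0.40, while the collagen chaperone gene Serpinh1 ranged only from 65.9 to 78.4 CPM.

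Among hydroxylases, P3h2 (listed as Leprel1), which modifies type IV collagen in particular, stood at 274.4 and 242.1 CPM with saline and 193.5 and 207.1 CPM with complexes. Both treated libraries were below both controls (log2 difference -0.37 ± 0.18). Plod3, a lysyl hydroxylase that also adds sugars to type IV, differed by -0.22 ± 0.18. Of processing and crosslinking genes, Lox, which crosslinks fibrils, differed by 0.60 ± 0.40 and Pxdn, which crosslinks type IV, by 0.41 ± 0.29, and both overlapped between groups.

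Among proteins that coat fibrils, the proteoglycan genes Dcn and Lum had higher means with complexes. Dcn stood at 10.4, 25.4, 28.7 and 35.0 CPM and Lum at 0.541, 2.46, 2.51 and 5.53 CPM in saline 1, saline 2, immune complex 1 and immune complex 2. Saline 1 stood apart from the other 3 libraries in both genes. The log2 differences of 0.83 ± 0.39 and 1.41 ± 0.70 were 0.32 and 0.70 without saline replicate 1. Without saline replicate 2 they were 1.60 and 2.87, but saline 1 is then the only control, so these values show how far that library stands from the treated pair and not a difference between groups. Both genes are also among 10 fibroblast markers, 7 of them higher, which summed to 76.9 and 82.3 CPM with saline and 81.8 and 99.5 CPM with complexes. These sums overlapped. Without overlap, 5 of the 10 were higher and 2 lower, against 15.4% and 14.6% of all genes tested. The 2 lower were Pdgfra (46.1 and 24.0 against 17.1 and 18.3 CPM) and Fbln1 (9.99 and 8.23 against 7.75 and 5.67 CPM). In adipocyte markers saline 1 was the lowest library as well, and the part of these cells was not tested. Of collagen receptors, Ddr1, a collagen-sensing kinase of epithelium, differed by -0.36 ± 0.23, and Gp6, the platelet collagen receptor, by 0.88 ± 0.49 at 0.378 to 1.17 CPM, where 100% of its reads lay in introns.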

How the data were processed

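RNA from a kidney piece per sample was sequenced by a service company on Illumina libraries, as the extract protocol says. GRCm38, STAR 2.5.2b and DESeq2 appear in the submitters' processing notes without a role, and no source used here names the counter, annotation release or strand setting. Per the file headers, the authors deposited raw read counts per gene (total, unique, exon and intron) and RPKM values, and for all 44 collagen genes RPKM could be recomputed from exon reads over exon length and library total (tolerance 1e-04). Exon numbers and lengths are as deposited. The authors' deposited table of 16128 genes gives log2 fold changes and p-values.

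Total gene reads of all 4 libraries (2 saline, 2 immune complex) entered edgeR 4.0.16 under R 4.3.3 with its filterByExpr filter, TMM scaling and quasi-likelihood test, and p was adjusted by Benjamini-Hochberg at 0.05. The fit was tested on simulated data. Standard errors are the log2 fold change over the square root of F. DESeq2 1.42.0, limma-voom (limma 3.58.1), RLE scaling, other filters, exon reads, unique reads, a replicate block and leaving out each library were tried. Chi-square per degree of freedom was 13.8 between saline and 46.0 between immune complex libraries, so neither pair is a copied library. Members and gene lists were chosen with earlier results of these data known. Named in full were the type IV genes, the 12 members highest in RPKM and the 10 with the lowest p. The first 2 of each role group by RPKM and of each pathway list by p were added. Upk3b, Msln, Krt19, Col2a1, Col10a1, Col11a2, Col17a1, Col24a1, Serpinh1 and others given by range were named after their values were seen. Depth bears on members under 50 reads, where counting error alone is wide.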

Additional observations from a re-analysis of the deposited data

How the results depend on the processing

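Over all genes, edgeR called 0, and the count was 100 with DESeq2, 2 without a low-count filter, 1 with unique reads and 55 with the replicate block. It ranged from 0 to 279 with single libraries left out. Collagen genes called were 0, and 1 (Col11a1) with DESeq2, with the replicate block and without saline replicate 2, a range of 0 to 1. Collagen pathway genes called ranged from 0 to 2 (Dcn and Lum) with single libraries left out. A group then has 1 library, assumed to vary like the pair of the other group, so calls there are no evidence for the groups. The median log2 difference of collagen genes, -0.16, was -0.071 with exon reads, where 33 genes were tested, and ranged from -0.21 to 0.0056 with single libraries left out. The collagen share of reads kept its direction under all alternatives run. Of 36 named genes, all kept their sign under RLE scaling, DESeq2, limma-voom, no filter and the replicate block. Col7a1 was 0.020 with exon reads and Col4a3 -0.29 with unique reads. With single libraries left out, signs turned for Col4a2 (-0.17 to 0.18), Col4a3 (-0.36 to 0.38), Col5a2 (-0.37 to 0.0021), Col6a1 (-0.036 to 0.45), Col6a2 (-0.17 to 0.42), Col7a1 (-0.65 to 0.43), Col8a2 (-0.89 to 0.018) and Col27a1 (-1.29 to 0.27). The cause of these changes was not tested, except that exon reads and single libraries leave fewer genes or samples.

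Replicate numbers are shared between groups, but no label says that they pair samples, and deviations of same-numbered libraries correlated at -0.15 over genes. A block with crossed numbers, chosen after seeing the data, gave 160 genes in all, 1 collagen gene and 0 pathway genes.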
